A study of Mus musculus with 48 samples.

Results

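Fatty acid oxidation was followed here through 34 genes for the enzymes of mitochondrial and peroxisomal beta-oxidation, the carnitine shuttle and their regulators. The 34 genes were listed by name among the 24411 genes of the deposited table, and 33 of them had enough counts to be tested among 12634 genes. Bulk RNA was sequenced from macrophages washed out of the airspaces of male mice by bronchoalveolar lavage. The mice were wild type (WT) or lacked Siglec-F (KO), a sialic acid-binding receptor of resident alveolar macrophages and eosinophils. They received saline (the naive groups, labelled day 0) or 2.5 units/kg of bleomycin into the trachea, a drug that injures the lung and is widely used to model fibrosis, and were sampled 7, 14 or 21 days later. Each of the 8 groups held 3 mice, 24 in all, with 1 column of expected counts per mouse.

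Beta-oxidation shortens a fatty acid by repeated cycles of dehydrogenation, hydration, dehydrogenation and thiolytic cleavage. Long-chain fatty acids are first activated to acyl-CoA, carried into mitochondria as acyl-carnitines and then oxidised there, with electrons passed to the respiratory chain through the electron transfer flavoprotein. Peroxisomes shorten very long and branched chains with a parallel set of enzymes. The alveolar macrophage lives among surfactant lipid, which it takes up and breaks down.

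Total counts per mouse ran from 24877049 to 47457085. Levels are given as CPM, the count of a gene scaled to a common library size after TMM normalisation, and a gene was called when the edgeR quasi-likelihood test gave a Benjamini-Hochberg adjusted p under 0.05 over all tested genes. Siglecf stood at 66.3 to 481 CPM in the 12 WT libraries and at 0 to 0.577 CPM in the 12 KO libraries. KO day 14 mouse 3 and KO day 21 mouse 1 lay on the naive side of the first principal component of all tested genes, at -15.8 and -20.4, where naive mice lay between -59.2 and -54.0 and the other bleomycin mice between 1.63 and 38.7. Summed markers common to macrophages (8 genes) lay between 5418 and 7422 CPM over all mice. Against naive mice 3 of these 8 genes were called higher on each day in both genotypes. On days 7, 14 and 21, 3, 1 and 1 were lower in WT mice and 3, 0 and 0 in KO mice.

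Most called members of the oxidation list were lower after bleomycin. In WT mice 18 of 33 members were lower and 1 higher at day 7, where 15.3% of all tested genes were lower and 20.2% higher. At day 14 in WT mice 15 were lower and 2 higher, against 13.4% and 18.7% of all genes, and at day 21 13 were lower and 2 higher, against 13.7% and 18.8%. KO mice had 18 lower and 1 higher at day 7 (all genes 14.4% and 19.7%), 11 lower and 2 higher at day 14 (4.84% and 12%), and 8 lower and 2 higher at day 21 (6.89% and 15%). The median log2 fold change of the members was -0.39, -0.27 and -0.27 in WT mice on days 7, 14 and 21 and -0.36, -0.17 and -0.21 in KO mice. Over all tested genes the 6 medians lay between -0.00285 and 0.0223. The 3 comparisons within a genotype share that genotype's naive mice, so their calls are set side by side and not counted as independent.

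**Figure D1:**
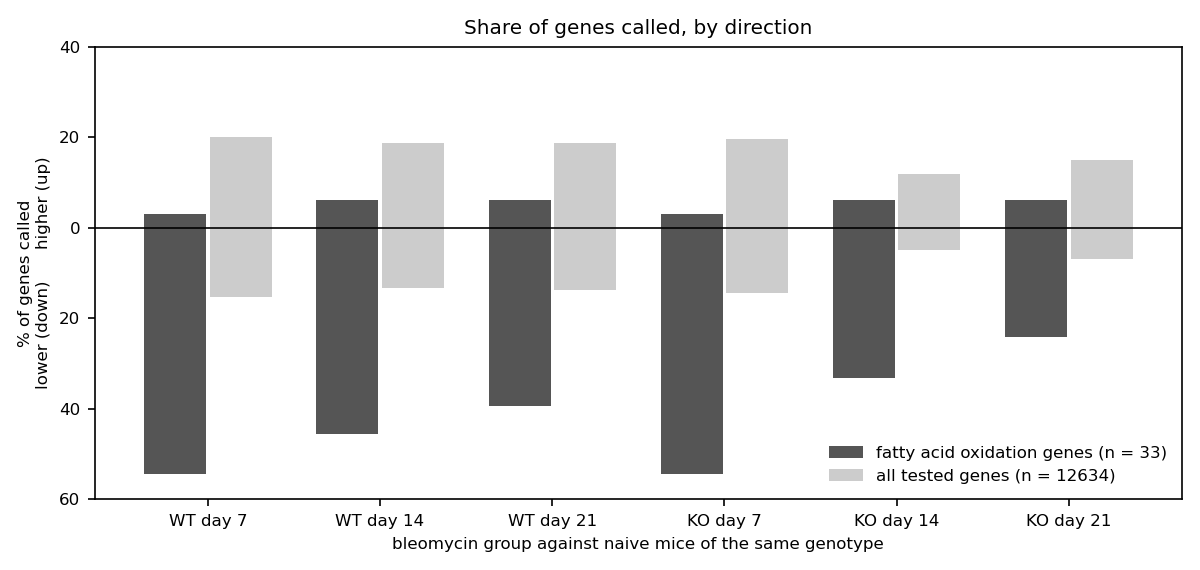
Share of genes called as higher (bars up) or lower (bars down) in each bleomycin group against naive mice of the same genotype, in percent; dark bars are the 33 oxidation genes, light bars all 12634 tested genes. The dark downward bars run from 54.5% in both day 7 groups to 24.2% in KO mice at day 21, and the light downward bars from 15.3% to 4.84%.

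6 members were lower in all 6 comparisons with naive mice, namely Cpt1a, Acadvl, Acadm, Hadhb, Hsd17b4 and Acot2. A total of 22 members were lower in at least 1 comparison, and Crat and Echs1 alone were higher in any. By edgeR 9 were called in none, namely Acsl4, Acsl5, Acadl, Acad9, Acaa2, Decr1, Etfdh, Decr2 and Ppargc1b. Matching shares of all tested genes, in all 6, in any or in none of the comparisons, were not counted. These counts therefore only describe the list, and whether they are unusual was not tested. The KO counts after day 7 depended on which mouse was left out. The share of all genes called in these fits and in the models below is not given here. At day 14 the count of 13 members dropped to 5, 4 and 5 when KO naive mouse 1, 2 or 3 was left out in turn. It dropped to 4 without KO day 14 mouse 1 or mouse 2 and was 13 without KO day 14 mouse 3. At day 21 the count of 10 members dropped to 5 on leaving out any KO naive mouse and to 4 on leaving out mouse 2 or mouse 3 of day 21, and it rose to 16 on leaving out mouse 1 of day 21.

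The model also bore on the calls. Fitted to the 2 groups at hand, with no other group to estimate the spread, KO day 21 against naive mice gave 1 call, that of Acot2, and those of Acadm, Acadvl, Acsl1, Cpt1a, Crat, Echs1, Hadhb, Hsd17b4 and Pdk4 were lost. The same fit ended the calls of Acadm and Echs1 in KO mice at day 14, of Acaa1a and Hadh in WT mice on all 3 days, of Cpt2, Crat and Etfa in WT mice at day 7, of Echs1 and Etfb at day 14 and of Echs1 and Eci2 at day 21. Without the filter on low counts Echs1 at day 21 in WT mice, Cpt1a, Acsl1 and Slc25a20 at day 14 in KO mice and Acadvl and Acsl1 at day 21 in KO mice were among 14 lost calls. With the replicate number as a block Cpt1a and Acsl1 at day 14 and Acadm and Acsl1 at day 21, all in KO mice, and Eci2 in WT mice at day 21 were not called. Limma-voom did not call Echs1 in KO mice at day 14, nor did RLE scaling call Acadvl in KO mice at day 21. In the other direction, the fit of the 2 groups at hand added Acsl5, Etfa, Hadh and Ppargc1b (log2 fold change 0.47, adjusted p = 0.0383) in KO mice at day 7 and Eci2 and Hadha in KO mice at day 14. With the Rn45s covariate Decr2, Eci1, Eci2, Etfb and Slc25a20 were also lower in WT mice at day 7. DESeq2 called Acsl4 higher in WT mice at day 21 (log2 fold change 0.26, adjusted p = 0.0349) and Acsl5 higher in KO mice at day 7 (0.23, 0.0184).

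**Figure D2:**
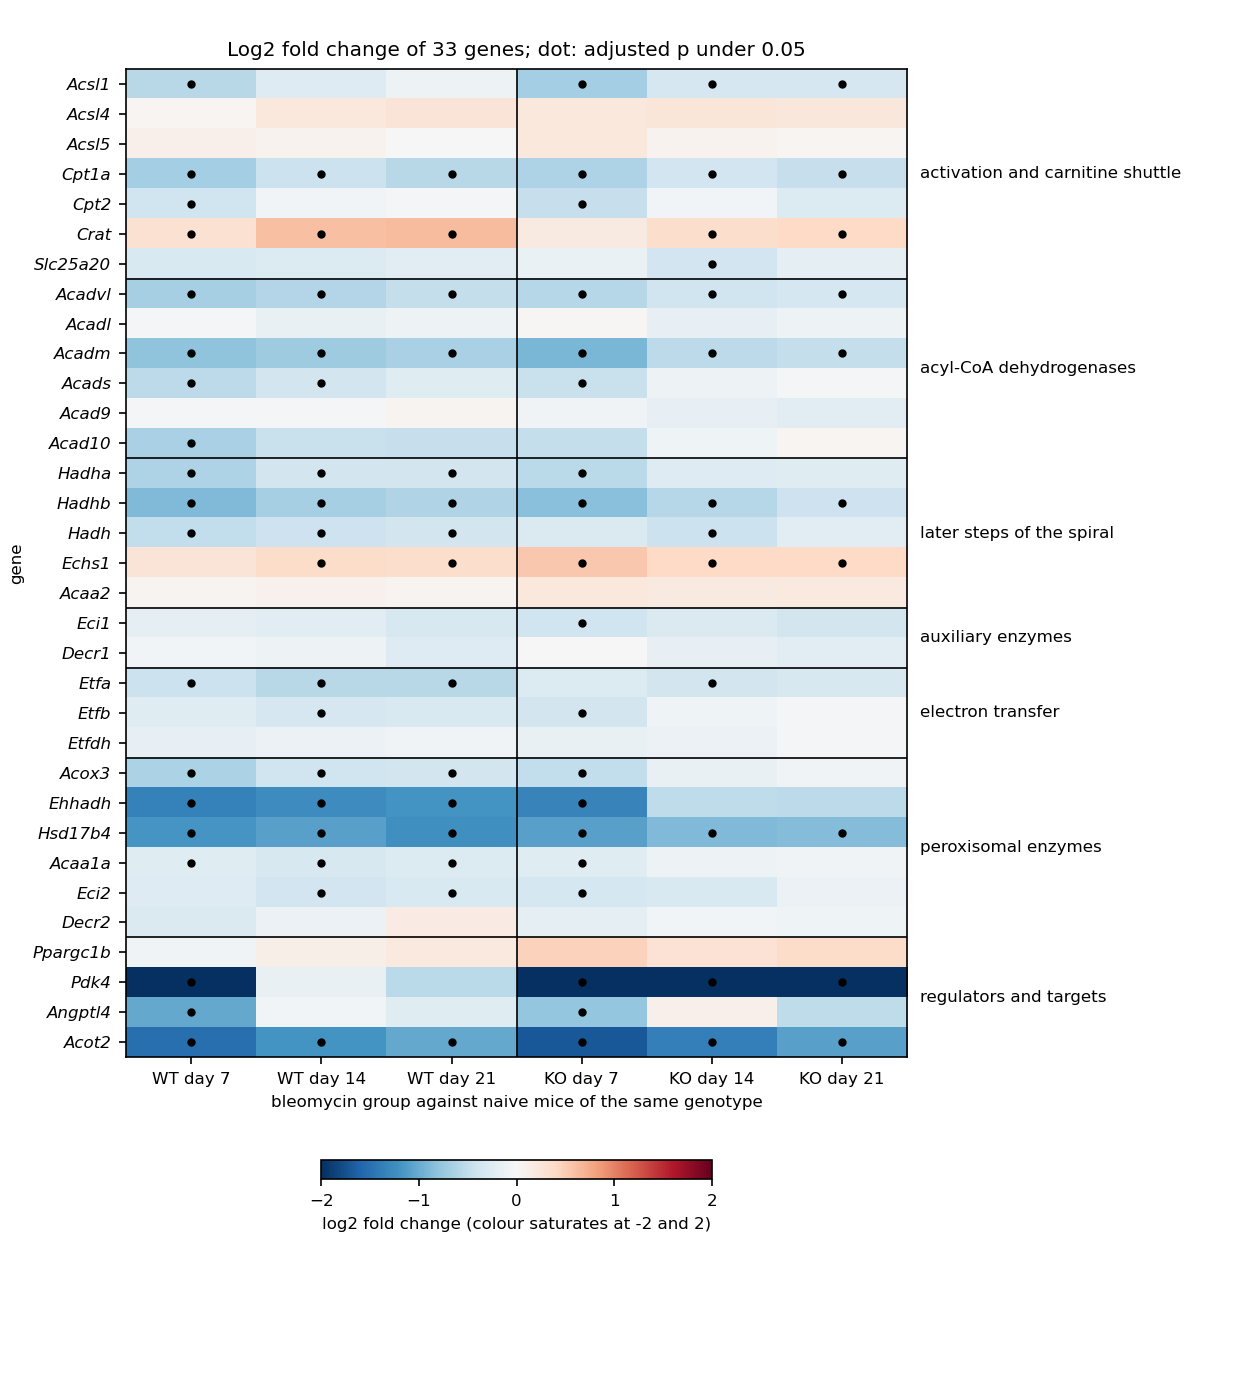
Log2 fold change of the 33 tested oxidation genes (rows, by role) in each bleomycin group against naive mice of the same genotype (columns); blue is lower, red is higher, colour saturates at -2 and 2, and a dot marks an adjusted p under 0.05. Hsd17b4, Ehhadh, Acot2 and Pdk4 hold the darkest blue cells, and only the rows of Crat and Echs1 hold dots on red cells.

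Markers of the macrophage origin moved in the same mice. A list of 16 genes of resident alveolar macrophages summed to 22875 to 30187 CPM in naive WT mice. It summed to 8893 to 10879 at day 7, 10149 to 16233 at day 14 and 15634 to 18720 at day 21. On these days 12, 11 and 9 of its genes were lower and 1, 2 and 3 higher. In KO mice this list summed to 25887 to 26980 CPM in naive mice, then 8223 to 12420, 14184 to 24733 and 13365 to 22959. Here 12, 5 and 1 genes were lower and 0, 2 and 1 higher. The list holds Siglecf, which KO mice lack, so the counts of the 2 genotypes are not fully alike. A list of 16 genes of recruited macrophages summed to 1857 to 3303 CPM in naive WT mice and 14173 to 16107, 21144 to 29804 and 25442 to 27284 on the 3 days, with 15 genes higher each day. The same list summed to 1800 to 2985 CPM in naive KO mice, then 10581 to 22134, 8917 to 26152 and 9059 to 32983, with 15, 13 and 15 genes higher. Ly6c2, a monocyte marker of this list, was at 0 CPM in naive WT mice. Smaller lists of other cells moved too: 9 detected T and NK cell genes summed to 0.646 to 1.71 CPM in naive mice and 6.42 to 52 after bleomycin, and 8 dendritic cell genes to 0.777 to 1.74 and 3.86 to 23.9. The neutrophil list (10 of 11 genes present in the count table, Elane and Camp at 0 in every group) summed to 107 to 159 CPM in naive mice and 132 to 372 after bleomycin. Of its 6 tested genes, 2, 4 and 5 were higher and 1, 0 and 1 lower in WT mice on days 7, 14 and 21. For KO mice the numbers were 2, 2 and 2 higher and 0, 1 and 1 lower. The 5 erythroid genes summed to 0 to 16.8 CPM in naive mice and 1.35 to 352 after bleomycin, and 4 of them were higher in WT mice at day 21. The 8 epithelial genes summed to 202 to 286 CPM in naive mice and to 75.3 to 251 after bleomycin, yet more of them were called higher than lower in 5 of the 6 comparisons, 5 against 2 in WT mice at day 7. The 5 detected B cell genes and the 5 eosinophil genes stayed at or under 5.53 and 18.7 CPM. The part of all these cells in the member values below was not tested. In bulk RNA, fewer cells of a type and less RNA per cell cannot be told apart.

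Promoter sequences are shown for 5 members because their genes moved and their windows bear on 2 sequence features, a shared start region and a nuclear receptor half-site. Of the 34 members 27 matched the RefSeq promoter table (GRCm38.p6), with 28 windows of 250 bases before a transcription start. Hadha and Hadhb, the 2 subunits of the mitochondrial trifunctional protein, are transcribed away from each other on chromosome 5. Their RefSeq starts are at 30154980 and 30155253, 273 bases apart. The starts differ in GENCODE M21, where Hadha begins at 30155162, Hadhb at 30155248 and Cpt1a at 3322334. Part of the Hadha window and the printed Cpt1a stretch therefore lie inside the GENCODE genes. The half-site AGGTCA, on either strand, occurred in 4 of the 28 member windows against 14.0% of all 32851 windows. A direct repeat of AGGTCA spaced by any 1 base, the PPAR type of element, occurred in 0 of 28 (0.0335% of all windows). TCAAGGTCA, the ERR element, which contains the half-site, occurred in 0 (0.387%). The NRF1 motif, GCGCA and GCGC spaced by any 1 base, occurred in 4 (3.74%), those of Acad10, Etfb, Etfdh and Ppara. All were searched on both strands. Each stretch below is the part of a window that holds no annotated exon of any gene in GENCODE M21, on the strand of the gene, 5′ to 3′. In the Hadhb stretch (chr5:30155163-30155247, + strand) capitals mark the 68 bases that also lie in the Hadha window. In the other 4, capitals mark the half-site or its reverse complement: Acadm (chr3:153944644-153944893, - strand), Acadvl (chr11:70015429-70015678, - strand), Cpt1a (chr19:3323051-3323284, + strand) and Echs1 (chr7:140116477-140116671, - strand).
Hadhb: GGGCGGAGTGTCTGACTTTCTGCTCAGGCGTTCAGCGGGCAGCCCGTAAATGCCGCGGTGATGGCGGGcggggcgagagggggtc
Acadm: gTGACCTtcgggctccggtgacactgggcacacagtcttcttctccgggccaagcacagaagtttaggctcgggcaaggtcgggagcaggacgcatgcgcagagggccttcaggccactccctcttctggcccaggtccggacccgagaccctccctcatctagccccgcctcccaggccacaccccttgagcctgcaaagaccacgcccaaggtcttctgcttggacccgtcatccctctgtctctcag
Acadvl: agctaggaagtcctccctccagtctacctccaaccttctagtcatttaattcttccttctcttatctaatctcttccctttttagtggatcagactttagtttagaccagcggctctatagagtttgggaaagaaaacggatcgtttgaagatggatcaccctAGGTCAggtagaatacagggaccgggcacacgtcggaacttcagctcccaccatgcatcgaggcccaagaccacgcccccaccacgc
Cpt1a: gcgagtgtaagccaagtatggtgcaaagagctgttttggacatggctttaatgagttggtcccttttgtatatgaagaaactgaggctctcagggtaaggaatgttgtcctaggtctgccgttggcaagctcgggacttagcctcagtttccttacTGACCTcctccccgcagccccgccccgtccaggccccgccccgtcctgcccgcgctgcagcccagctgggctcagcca
Echs1: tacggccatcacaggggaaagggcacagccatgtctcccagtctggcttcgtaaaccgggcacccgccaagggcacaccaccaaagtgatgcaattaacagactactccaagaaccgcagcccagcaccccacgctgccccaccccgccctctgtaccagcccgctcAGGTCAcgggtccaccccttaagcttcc
The 4 genes with the half-site did not share a direction: Acadm, Acadvl and Cpt1a were lower in all 6 comparisons, and Echs1 was higher in 5.

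Levels of the members can be set beside each other in CPM per kilobase of exon, given here for naive WT mice. Hsd17b4 (177 ± 20.1, SD, n = 3) and Etfb (170 ± 38) were at the top and their ranges over mice overlapped. Cpt1a followed at 129 ± 9.25, and its range (122.6 to 139.4) just overlapped that of Etfb (138.95 to 212.3). The next genes were Acaa1a (100 ± 9.84), Hadha (96.6 ± 2.09), Hadhb (90.8 ± 14.7) and Etfa (87.4 ± 20.5), with no mouse reaching the lowest of Cpt1a. These next genes could not be ordered beyond their spread. Acadm stood at 42.2 ± 2.33, Crat at 22.1 ± 0.114, Pdk4 at 5.79 ± 1.03 and Ppargc1b, a coactivator of mitochondrial gene expression, at 1.27 ± 0.66. Ppara, the nuclear receptor that drives oxidation genes in liver, had no counts in 22 of 24 mice and 0.152 and 0.0331 CPM in WT day 14 mouse 3 and WT day 21 mouse 1, so it was not tested and no change was detectable at this depth.

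Among the genes of fatty acid activation and the carnitine shuttle, Cpt1a fell and Crat rose. Cpt1a (chr19:3322334-3385733, + strand) encodes the outer-membrane carnitine palmitoyltransferase, the rate-limiting entry step for long-chain fatty acids. In WT mice 1, 2 and 3 of each group it stood at 529, 602 and 537 CPM in naive mice, 327, 353 and 357 at day 7, 439.9, 401 and 393 at day 14, and 385, 399 and 354 at day 21. In KO mice the values were 554, 554 and 559 CPM in naive mice, 318, 365 and 405 at day 7, 382, 422 and 481 at day 14, and 504, 321 and 391 at day 21. Every bleomycin mouse lay below every naive mouse of its genotype, and the 2 highest bleomycin values were KO day 21 mouse 1 and KO day 14 mouse 3. The log2 fold changes were -0.68 ± 0.13 (SE), -0.43 and -0.55 in WT mice and -0.61, -0.38 and -0.45 in KO mice, with edgeR adjusted p from 0.000275 in WT mice at day 7 to 0.0437 in KO mice at day 14. The WT day 14 call was lost without WT naive mouse 2 (adjusted p = 0.0535) or WT day 14 mouse 3 (0.0504), the KO day 14 call in all leave-one-out fits but the one without KO day 14 mouse 3 (0.0941 to 0.198), and the KO day 21 call without KO day 21 mouse 2 (0.0931) or mouse 3 (0.0529).

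Crat (chr2:30400471-30415813, - strand) encodes carnitine acetyltransferase, which exchanges acetyl groups between CoA and carnitine. In WT mice it stood at 101, 101 and 100.1 CPM in naive mice, 139, 124 and 112 at day 7, 149, 154 and 155 at day 14, and 157, 152 and 159.9 at day 21. The KO values were 119.9, 104 and 113 CPM in naive mice, 121, 139 and 121 at day 7, 151, 137 and 142 at day 14, and 133, 162 and 148 at day 21. All bleomycin mice were above all naive mice of the same genotype, by a small margin in KO mice at day 7. The rise was 1.24-fold, 1.52-fold and 1.55-fold in WT mice (edgeR adjusted p = 0.00914, 3.13e-05 and 1.67e-05). In KO mice the rises on days 14 and 21 were 1.28-fold and 1.32-fold (edgeR adjusted p = 0.00793 and 0.00238), and their day 7 fold of 1.13 was not called (0.12). The WT day 7 call was lost without WT day 7 mouse 1 (0.0617), and the KO day 14 call without KO naive mouse 2 (0.0569).

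The other 5 shuttle genes gave fewer calls. Acsl1, a long-chain acyl-CoA synthetase, was lower at day 7 in both genotypes (log2 fold change -0.56 in WT and -0.67 in KO) and in KO mice at days 14 and 21 (-0.34 and -0.33, adjusted p = 0.0437 and 0.0429). The day 14 call of Acsl1 was lost in all leave-one-out fits but the one without KO day 14 mouse 3, and the day 21 call in all but the one without KO day 21 mouse 1 (0.0571 to 0.162 over both days). Cpt2, the inner-membrane carnitine palmitoyltransferase, was lower at day 7 alone, by 0.39 in WT and 0.46 in KO mice on the log2 scale, and the WT call was lost without WT naive mouse 2 (0.0772) or WT day 7 mouse 1 (0.075). Slc25a20, the carnitine-acylcarnitine translocase, was called in KO mice at day 14 alone (-0.38, adjusted p = 0.0406), a call kept only without KO day 14 mouse 3. The synthetases Acsl4 and Acsl5 had log2 fold changes between 0.01 and 0.25, none called.

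**Figure D3:**
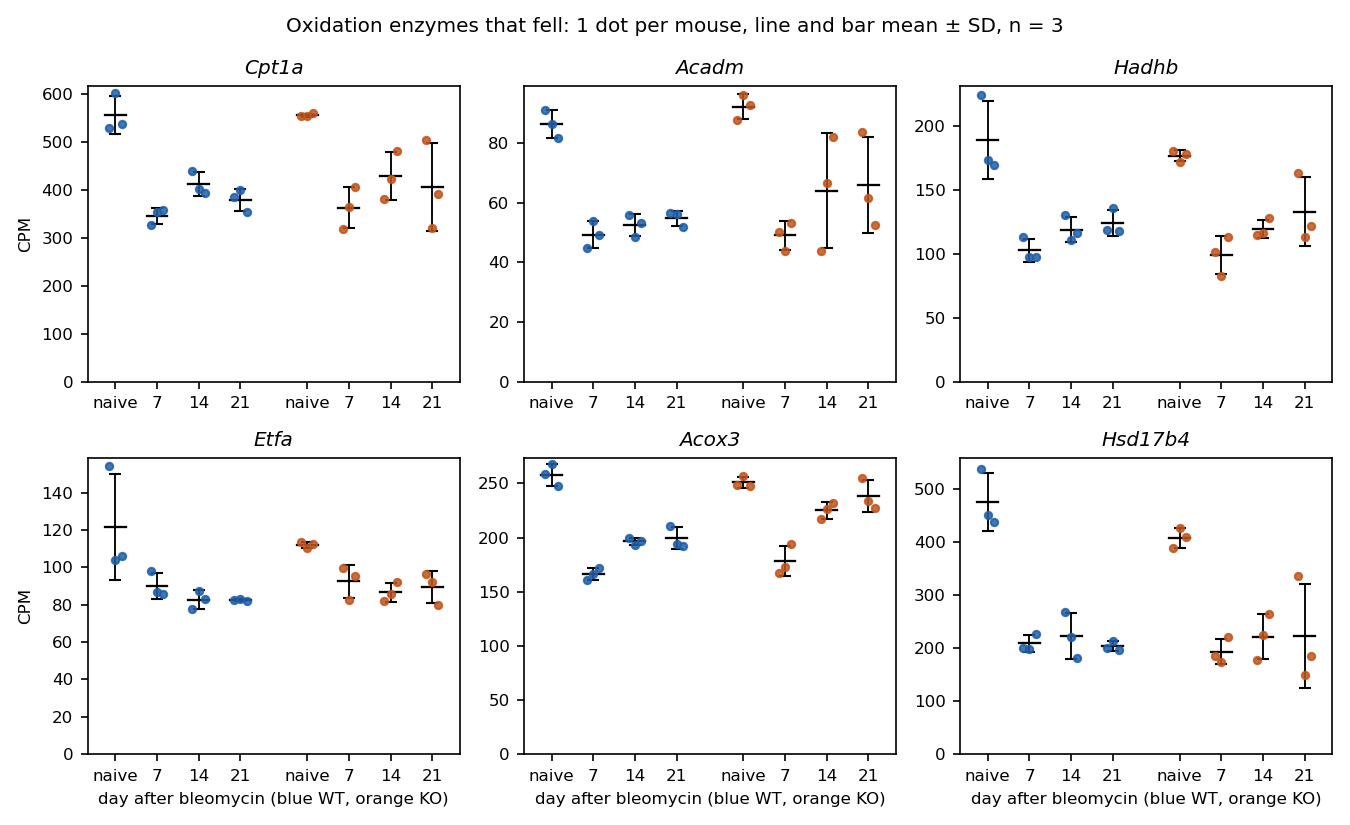
CPM (vertical axes, from 0) of Cpt1a, Acadm, Hadhb, Etfa, Acox3 and Hsd17b4 in each group (horizontal axes); dots are single mice, blue WT and orange KO, and bars show the mean ± SD of 3 mice. The naive dots stand above the bleomycin dots of the same genotype in every panel except Acox3, where KO day 21 mouse 1 at 255 CPM lies within the KO naive range.

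The first dehydrogenation of the mitochondrial cycle is made by acyl-CoA dehydrogenases of different chain length, and the medium- and very-long-chain members fell most steadily. Acadm (chr3:153922357-153944632, - strand), the medium-chain enzyme, stood at 91.2, 86.4 and 81.6 CPM in naive WT mice, 45, 53.7 and 49.3 at day 7, 55.9, 48.4 and 53.3 at day 14, and 56.4, 56.2 and 51.9 at day 21. KO mice held 87.7, 96.3 and 92.7 CPM in naive mice, 50.2, 43.8 and 53.3 at day 7, 43.7, 66.6 and 82 at day 14, and 83.9, 61.5 and 52.6 at day 21. The groups did not overlap in either genotype, but KO day 14 mouse 3 and KO day 21 mouse 1 came within 6 CPM of the naive KO range. Acadm was 1.75-fold, 1.64-fold and 1.57-fold lower in WT mice (edgeR adjusted p = 0.000912, 0.00286 and 0.00552) and 1.88-fold, 1.44-fold and 1.4-fold lower in KO mice (0.000309, 0.037 and 0.0445). The KO day 14 call was kept only without KO day 14 mouse 3 and the KO day 21 call only without KO day 21 mouse 1, with 0.0624 to 0.225 in the other leave-one-out fits. With both of those mice left out, a check chosen after the data were seen, the KO log2 fold changes of Acadm were -0.74 and -0.69.

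Acadvl, the very-long-chain enzyme, was lower in all 6 comparisons, with log2 fold changes of -0.66, -0.59 and -0.48 in WT mice and -0.56, -0.40 and -0.35 in KO mice. Its KO day 14 and day 21 calls (adjusted p = 0.0308 and 0.0475) were kept only without the same 2 mice, each on its own day (0.0643 to 0.235 in the other leave-one-out fits). Acads, the short-chain enzyme, was lower in WT mice at days 7 and 14 (-0.52 and -0.37) and in KO mice at day 7 (-0.44), and the WT day 14 call was lost without WT naive mouse 1 (0.058) or WT day 14 mouse 3 (0.0681). Acad10 was lower in WT mice at day 7 alone (-0.66), a call kept only without WT naive mouse 3 or WT day 7 mouse 1 (0.0706 to 0.0992 otherwise). Acadl, the long-chain enzyme, and Acad9, also needed for assembly of respiratory complex I, had log2 fold changes between -0.21 and 0.05 with no call.

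The later steps of the mitochondrial cycle split in direction. Hadhb (chr5:30155248-30184593, + strand) encodes the thiolase subunit of the trifunctional protein, and its start region is printed above. It stood at 224, 173 and 169 CPM in naive WT mice, 113, 97.9 and 97.3 at day 7, 130.1, 111 and 116 at day 14, and 118, 135 and 118 at day 21. KO mice 1, 2 and 3 had 180.1, 172 and 178 CPM in naive mice, 102, 82.8 and 113 at day 7, 115, 116 and 128 at day 14, and 163, 113 and 122 at day 21. No bleomycin mouse reached a naive mouse of its genotype, and the highest was KO day 21 mouse 1. Hadhb fell by 0.88, 0.67 and 0.61 on the log2 scale in WT mice (SE 0.14, 0.13 and 0.13) and by 0.83, 0.56 and 0.41 in KO mice, with edgeR adjusted p from 4.47e-05 to 0.0335. The KO day 21 call of Hadhb was kept only without KO day 21 mouse 1 (0.0647 to 0.174 otherwise).

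Hadha (chr5:30118304-30155162, - strand), the hydratase and dehydrogenase subunit across the shared start region, was 1.53-fold, 1.28-fold and 1.29-fold lower in WT mice and 1.46-fold lower in KO mice at day 7. Its KO log2 fold changes of -0.25 and -0.24 on days 14 and 21 were not called (edgeR adjusted p = 0.0915 and 0.0924). Hadh, the short-chain hydroxyacyl-CoA dehydrogenase, was lower on all 3 days in WT mice (-0.49, -0.41 and -0.37) and at day 14 in KO mice (-0.43). WT naive mouse 1 held 101 CPM of Hadh against 66.3 and 66.4 in the other naive WT mice, and without it the WT day 14 and day 21 calls were lost (0.184 and 0.285). Leaving out WT day 14 mouse 2 (0.069) or any of the 3 WT day 21 mice (0.0562 or more) ended those calls as well, and the KO day 14 call was kept only without KO day 14 mouse 3 (0.0521 to 0.0956 otherwise).

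Echs1 (chr7:140105710-140116476, - strand) encodes the short-chain enoyl-CoA hydratase and was the enzyme of the cycle that rose. It stood at 70, 51.3 and 59.7 CPM in naive WT mice, 79.2, 67.2 and 70.7 at day 7, 75.1, 81.5 and 76.6 at day 14, and 79.7, 69.9 and 80.5 at day 21. The same groups of KO mice held 54.6, 52.6 and 53.7 CPM in naive mice, 86.9, 79 and 67.7 at day 7, 80.7, 74.5 and 57.3 at day 14, and 61, 77.6 and 72.4 at day 21. KO groups did not overlap the KO naive mice, while WT naive mouse 1 lay within the WT values at days 7 and 21. Echs1 rose 1.29-fold and 1.27-fold in WT mice at days 14 and 21 (edgeR adjusted p = 0.0358 and 0.046) and 1.45-fold, 1.32-fold and 1.31-fold in KO mice (0.00296, 0.0382 and 0.0351), and the WT day 7 fold of 1.2 was not called (0.122). The KO day 7 call held in every leave-one-out fit. The WT day 14 call was kept only without WT naive mouse 1, the WT day 21 call only without WT naive mouse 1 or WT day 21 mouse 2, the KO day 14 call only without KO day 14 mouse 3 and the KO day 21 call only without KO day 21 mouse 1 (0.0538 to 0.208 in the fits that lost it). Acaa2, the mitochondrial ketoacyl-CoA thiolase, had log2 fold changes of 0.05 to 0.22 with no call.

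The auxiliary enzymes that handle unsaturated fatty acids gave 1 call. Eci1 (chr17:24426641-24439348, + strand), an enoyl-CoA isomerase, stood at 32.3, 25.9 and 28.3 CPM in naive WT mice, 33, 22.7 and 20 at day 7, 28.5, 23.6 and 22.1 at day 14, and 23.3, 22.5 and 23.3 at day 21. In KO mice, Eci1 levels were 27.2, 25.5 and 28.8 CPM in naive mice, 20.5, 19.9 and 21.5 at day 7, 19.5, 22.6 and 24.3 at day 14, and 23.5, 18.9 and 20.6 at day 21. WT groups overlapped the naive mice at days 7 and 14, and KO groups overlapped on no day. Eci1 was 0.40 lower on the log2 scale in KO mice at day 7 (edgeR adjusted p = 0.0411), a call lost in each of the 6 leave-one-out fits (0.0552 to 0.124), and its other 5 differences, from -0.19 to -0.37, were not called. Decr1, the mitochondrial dienoyl-CoA reductase, had no call.

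The electron transfer flavoprotein carries electrons from the acyl-CoA dehydrogenases to the respiratory chain, and its alpha subunit gene fell. Etfa (chr9:55454508-55512243, - strand) stood at 155, 104 and 106 CPM in naive WT mice, 98.3, 86.6 and 85.7 at day 7, 77.8, 87.5 and 83.2 at day 14, and 82.5, 83 and 82.3 at day 21. KO levels of Etfa were 113, 110.5 and 112 CPM in naive mice, 99.7, 82.5 and 95.5 at day 7, 82.1, 86 and 92.2 at day 14, and 96.3, 92.2 and 79.8 at day 21. All bleomycin mice were lower than all naive mice of their genotype, and WT naive mouse 1 stood well above the rest. Etfa was 1.35-fold, 1.47-fold and 1.47-fold lower in WT mice (edgeR adjusted p = 0.00797, 0.00142 and 0.00133) and 1.29-fold lower in KO mice at day 14 (0.0381), with KO days 7 and 21 not called (0.0802 and 0.0559). Without WT naive mouse 1 the WT day 7 call was lost (0.0778), while those of days 14 and 21 held in every leave-one-out fit, and the KO day 14 call was kept only without KO day 14 mouse 3 (0.0829 to 0.144 otherwise). In WT naive mouse 1 the ribosomal RNA gene Rn45s took 6.0% of counts, in a range of 0.743% to 8.19% over the 24 mice, and its part in the high values of this mouse was not tested.

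Etfb, the beta subunit gene, lies 84552 bases from Siglecf on chromosome 7 (chr7:43444083-43457800, + strand). It was called lower in WT mice at day 14 (log2 fold change -0.34, edgeR adjusted p = 0.0491) and in KO mice at day 7 (-0.36, 0.0317). The WT call of Etfb was kept only without WT naive mouse 2 or WT day 14 mouse 1 (0.0614 to 0.369 otherwise) and the KO call only without KO day 7 mouse 3 (0.0561 to 0.111 otherwise). Etfdh, the ubiquinone oxidoreductase that receives the electrons, had log2 fold changes between -0.17 and -0.03 with no call.

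Peroxisomal enzymes held some of the deepest falls of the list. Hsd17b4, the D-bifunctional protein that hydrates and dehydrogenates very long and branched chains, went from 437 to 536 CPM in naive WT mice to 199 to 227 at day 7, 181 to 268 at day 14 and 196 to 214 at day 21. In KO mice it went from 388 to 425 CPM to 173 to 220, 176.5 to 263 and 149 to 334.5, with the highest value in KO day 21 mouse 1. The groups did not overlap on any day. Hsd17b4 was 2.28-fold, 2.13-fold and 2.34-fold lower in WT mice and 2.11-fold, 1.84-fold and 1.83-fold lower in KO mice (edgeR adjusted p from 0.000173 to 0.00567), and each call held in every leave-one-out fit. Ehhadh, the L-bifunctional protein, was 2.54-fold, 2.38-fold and 2.29-fold lower in WT mice and 2.52-fold lower in KO mice at day 7. Its KO differences at days 14 and 21 were -0.51 and -0.52 on the log2 scale and were not called (0.224 and 0.192); KO day 21 mouse 1 held 17.4 CPM, within the naive KO range of 15.8 to 18.6. Without KO day 14 mouse 3 and KO day 21 mouse 1, Ehhadh was called at day 21 (-0.89, adjusted p = 0.0178).

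Acox3 (chr5:35583040-35615352, + strand) encodes a peroxisomal acyl-CoA oxidase, the oxygen-using first step in that organelle. It stood at 258, 267 and 247 CPM in naive WT mice, 161, 166 and 172 at day 7, 199.5, 193 and 197 at day 14, and 211, 194 and 192 at day 21. The KO groups held 248, 257 and 247 CPM in naive mice, 168, 173 and 194 at day 7, 217, 227 and 232 at day 14, and 255, 233 and 227 at day 21. WT groups stayed apart from the naive mice on all days, and in KO mice the day 21 group overlapped them. Acox3 was 1.55-fold, 1.31-fold and 1.29-fold lower in WT mice (edgeR adjusted p = 1.44e-06, 0.000323 and 0.00049) and 1.41-fold lower in KO mice at day 7 (2.44e-05), all held in every leave-one-out fit. The KO differences of -0.15 and -0.07 on the log2 scale at days 14 and 21 were not called (0.149 and 0.519).

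Acaa1a, a peroxisomal thiolase, was lower on all 3 days in WT mice (-0.24, -0.32 and -0.27) and at day 7 in KO mice (-0.24), and Eci2, an isomerase found in peroxisomes and mitochondria, was lower in WT mice at days 14 and 21 (-0.38 and -0.31) and in KO mice at day 7 (-0.36). Apart from Acaa1a in WT mice at day 14, each of these calls was lost without at least 1 mouse, the Acaa1a calls of WT days 7 and 21 (0.141 and 0.102) and the Eci2 calls of WT days 14 and 21 (0.101 and 0.239) among them without WT naive mouse 1. Further losses came without WT naive mouse 3 or WT day 7 mouse 2 for Acaa1a at day 7 (0.0618 and 0.16), without WT day 21 mouse 2 or 3 for Acaa1a at day 21 (0.0714 and 0.051), without WT day 14 mouse 3 for Eci2 at day 14 (0.0651) and without any WT day 21 mouse for Eci2 at day 21 (0.0748 or more). The KO day 7 call of Acaa1a was kept only without KO day 7 mouse 3 (0.0575 to 0.166 otherwise), and that of Eci2 was lost without KO naive mouse 2 (0.0806), KO day 7 mouse 1 (0.0888) or KO day 7 mouse 2 (0.077). Decr2, the peroxisomal dienoyl-CoA reductase, had no call. Acaa1a has a near-identical copy, Acaa1b, whose counts may be shared with it; Acaa1b was lower in all 6 comparisons, from 158 to 199 CPM in naive WT mice to 9.4 to 13.3, 8.26 to 35.1 and 12.7 to 44.7, and from 194 to 247 CPM in naive KO mice to 4.88 to 10.0, 9.01 to 59.1 and 5.74 to 110.2. The highest Acaa1b values were those of mouse 1 in WT day 14, mouse 2 in WT day 21, mouse 3 in KO day 14 and mouse 1 in KO day 21, and each moved its group mean by over 1.5 times.

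Acot2 (chr12:83987861-83993873, + strand), a mitochondrial acyl-CoA thioesterase and classical target of PPAR nuclear receptors, had the smallest p of the regulator and target genes. It stood at 36.9, 42.7 and 39.5 CPM in naive WT mice, 13.6, 13.3 and 15.1 at day 7, 22.1, 14.3 and 15.3 at day 14, and 19.7, 21.1 and 17.6 at day 21. KO levels of Acot2 were 41.3, 44.8 and 42.1 CPM in naive mice, 12.7, 12.9 and 14.1 at day 7, 15.7, 14.6 and 19.5 at day 14, and 29.6, 15.6 and 15.1 at day 21. The bleomycin groups lay far below the naive mice in both genotypes, with KO day 21 mouse 1 the nearest. Acot2 was 2.83-fold, 2.3-fold and 2.04-fold lower in WT mice and 3.23-fold, 2.57-fold and 2.13-fold lower in KO mice (edgeR adjusted p from 2.21e-06 to 0.0005), and all 6 calls held in every leave-one-out fit. Its neighbouring paralog Acot1, whose counts may be shared with it, went from 97.5 to 108 CPM in naive WT mice to 13.1 to 18.1, 11.8 to 39.8 and 12.4 to 30.4, and from 105 to 118 CPM in naive KO mice to 8.02 to 16.2, 8.31 to 37.4 and 3.36 to 54.9. In KO mice at day 21 mouse 1 held 54.9 CPM of Acot1 and the others 3.36 and 6.08, and in WT mice at day 14 mouse 1 held 39.8 against 11.8 and 16.1.

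Pdk4 (chr6:5483351-5496309, - strand) encodes a kinase that shuts down pyruvate dehydrogenase when fatty acids are burned. It stood at 19.9, 23.9 and 16.8 CPM in naive WT mice, 4.13, 3.28 and 7.13 at day 7, 33.9, 11 and 9.53 at day 14, and 10.1, 16.3 and 15.1 at day 21. KO levels of Pdk4 were 30.3, 45.1 and 34.8 CPM in naive mice, 5.59, 3.56 and 4.03 at day 7, 4.28, 6.38 and 13 at day 14, and 11.8, 0.855 and 4.32 at day 21. WT mice were apart from their naive mice at days 7 and 21 and overlapped at day 14, where mouse 1 exceeded all of them, while KO mice stayed below their naive mice throughout. Pdk4 fell by 2.06 ± 0.60 (SE) on the log2 scale in WT mice at day 7 (edgeR adjusted p = 0.0107), and its differences of -0.15 and -0.54 at days 14 and 21 were not called (0.872 and 0.501). KO mice fell by 3.06, 2.21 and 2.69 (edgeR adjusted p = 0.00064, 0.0131 and 0.00289), the day 14 call being lost without KO day 14 mouse 1 (0.0761) or mouse 2 (0.0595).

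Angptl4 (chr17:33773750-33781830, - strand) encodes a secreted inhibitor of lipoprotein lipase and another PPAR target. It stood at 111, 174 and 159 CPM in naive WT mice, 67.3, 74.8 and 75.4 at day 7, 163, 127 and 136 at day 14, and 116, 134 and 126 at day 21. KO levels of Angptl4 were 154, 114 and 122 CPM in naive mice, 43.2, 74.9 and 109 at day 7, 137, 138 and 145 at day 14, and 122, 46.1 and 107 at day 21. The day 7 groups were below the naive mice and the later groups overlapped them in both genotypes. The day 7 difference was 2.04-fold lower in WT mice (edgeR adjusted p = 0.00753) and 1.72-fold lower in KO mice (0.0378), and no other was called. The KO call was kept only without KO naive mouse 2 or KO day 7 mouse 3 (0.0618 to 0.197 otherwise). Ppargc1b had log2 fold changes from -0.06 to 0.47 with no call.

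**Figure D4:**
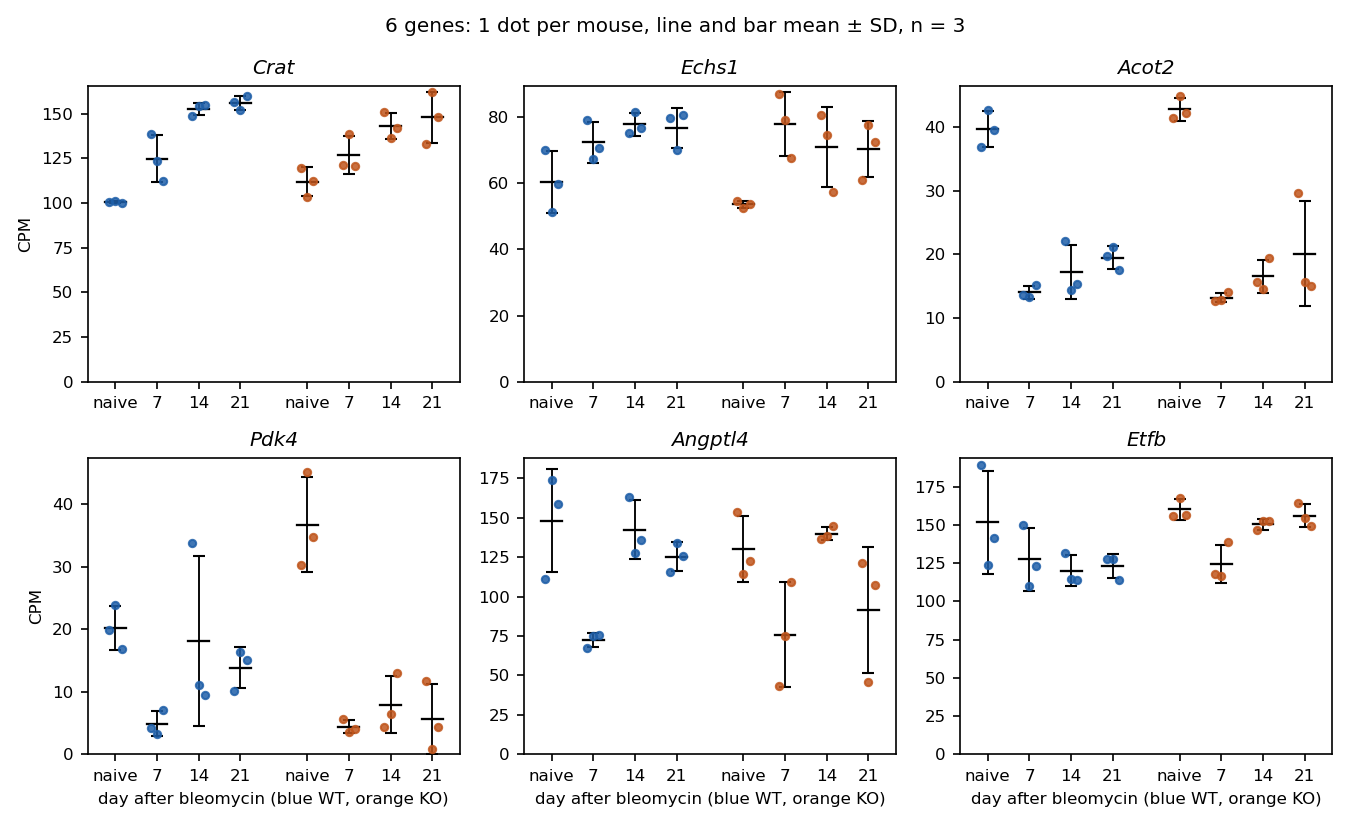
CPM (vertical axes, from 0) of Crat, Echs1, Acot2, Pdk4, Angptl4 and Etfb in each group (horizontal axes); dots are single mice, blue WT and orange KO, and bars show the mean ± SD of 3 mice. Crat dots stand higher after bleomycin, Acot2 dots lower, and the 2 naive groups of Pdk4 differ in mean, at 20.2 and 36.8 CPM.

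Between genotypes, the series asks whether loss of Siglec-F changes the macrophage response. No member was called in KO against WT naive mice, where 0.546% of all genes were, nor at day 7 (0.00792%), day 14 (0.135%) or day 21 (0.095%). At an unadjusted p under 0.05 edgeR gave 0, 0, 3 and 3 members in these 4 comparisons, where 8.33%, 4.59%, 10.0% and 9.78% of all genes lay under it, and 3 of 33 members is 9.09%. DESeq2 called 0, 0, 0 and 1 after adjustment. The 1 was Acox3 at day 21, with a log2 fold change of 0.26 (DESeq2 adjusted p = 0.0136, edgeR adjusted p = 0.16). Averaged over the 3 bleomycin days, 1 of 33 members was called higher and 0 lower, against 0.253% of all genes higher and 0.253% lower. That member, Acox3, was 1.14-fold higher in KO mice (log2 0.19 ± 0.04, SE, edgeR adjusted p = 0.0446). Its KO mice were all above its WT mice at day 14 and at day 21 but not at day 7. The same held for 3 of 33 members and 7.05% of all genes at day 14, and for 4 members and 7.53% at day 21. The Acox3 call was kept in 4 of 18 leave-one-out fits, those without KO day 7 mouse 1, KO day 14 mouse 1, KO day 21 mouse 2 or KO day 21 mouse 3 (0.0511 to 0.121 in the other 14). It was also lost without an expression filter (0.089), when the WT and KO bleomycin groups were fitted by themselves (0.105) and with the replicate block (0.0662).

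The difference between the KO and WT responses to bleomycin was called for 0 members on each day by edgeR, where 0.00792%, 0.332% and 0.332% of all genes were called. At an unadjusted p under 0.05 the counts were 0, 2 and 2 members, the latter 6.06% of them, against 6.14%, 10.3% and 10.8% of all genes. DESeq2 called Acox3 at day 21 (0.31, adjusted p = 0.0456). Pdk4 had the widest gap, with responses that differed by -2.06 and -2.15 on the log2 scale at days 14 and 21 (SE 0.81 at both, edgeR adjusted p = 0.351 and 0.305). Its naive level was 36.8 ± 7.6 CPM in KO and 20.2 ± 3.58 in WT mice (SD, n = 3), and both groups enter these differences. The 2 naive groups did not overlap and were not called different (log2 0.87, edgeR adjusted p = 0.831). Every naive KO mouse lay above every naive WT mouse for 8.98% of all genes. Without KO day 14 mouse 3 and KO day 21 mouse 1, Pdk4 was called lower in KO mice over the 3 bleomycin days (-1.43, adjusted p = 0.0392), while with all mice it was not (-0.87, 0.262). Etfb was 0.32 and 0.34 higher on the log2 scale in KO mice at days 14 and 21, with no call (edgeR adjusted p = 0.356 and 0.357). Its genotypes did not overlap on these days, as for 7.05% and 7.53% of all genes. With the Rn45s covariate, chosen after the data were seen, Etfb was called higher in KO mice over the 3 bleomycin days (0.29, adjusted p = 0.0238). Acads was 0.25 higher at day 14 (0.402), also not called.

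Few members were called between day 7 and day 21, and those called were higher at day 21. In WT mice Acox3, Acsl1 and Crat (9.09% of members) were higher and none was lower, against 5.49% and 6.15% of all genes. In KO mice Acads, Hadha, Hadhb, Acox3, Acot2 and Acsl1 (18.2%) were higher and none lower, against 7.16% and 7.73%. Acox3 rose 1.2-fold in WT and 1.34-fold in KO mice (edgeR adjusted p = 0.0217 and 0.000522). Of the 6 KO calls, that of Acox3 alone held in every leave-one-out fit: the count was 1 on leaving out KO day 7 mouse 1 or mouse 2 and 2 on leaving out mouse 1 of KO day 21, and no call was left when the 2 groups were fitted by themselves. The WT count of 3 was 1 on leaving out mouse 2 of WT day 7 or mouse 1 or mouse 3 of WT day 21. None of the 3 WT calls held in every leave-one-out fit. Of 6 such fits, Acox3 was lost in 3, Acsl1 in 2 and Crat in 4.

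Other genes of the pathway gave mixed calls. Of 42 tested genes from a list of 50 further oxidation genes, 15, 8 and 8 were lower and 5, 7 and 6 higher in WT mice on days 7, 14 and 21. In KO mice 14, 4 and 6 were lower and 6, 4 and 4 higher. The shares lower were 35.7%, 19% and 19% in WT mice (all genes 15.3%, 13.4% and 13.7%). In KO mice they were 33.3%, 9.52% and 14.3% (14.4%, 4.84% and 6.89%). The shares higher were 11.9%, 16.7% and 14.3% in WT mice (20.2%, 18.7% and 18.8%). In KO mice they were 14.3%, 9.52% and 9.52% (19.7%, 12% and 15%). Acat1, which makes and cleaves acetoacetyl-CoA, and Ech1, which handles dienoyl-CoA, were lower in all 6 comparisons, Acat1 by 0.49, 0.86 and 0.82 on the log2 scale in WT mice and Ech1 by 1.16, 0.91 and 0.84. Cat (catalase) and Scp2 (a sterol carrier and peroxisomal thiolase) were lower on all 3 days in WT mice and at day 7 in KO mice. Acsl3, a synthetase of lipid droplets, was higher in 5 comparisons, up to 3.16-fold in KO mice at day 14.

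Of 22 tested genes from a list of 25 further regulators, 9, 6 and 4 were lower and 1, 1 and 3 higher in WT mice. In KO mice 5, 0 and 0 were lower and 1, 2 and 2 higher. The shares lower were 40.9%, 27.3% and 18.2% in WT and 22.7%, 0% and 0% in KO mice. The shares higher were 4.55%, 4.55% and 13.6% in WT and 4.55%, 9.09% and 9.09% in KO mice. The shares of all genes are those given above for the same comparisons. Pparg, the PPAR that maintains alveolar macrophages and belongs to the resident marker list above, was 0.47, 0.549 and 0.644 of its naive level in WT mice and 0.458 of it in KO mice at day 7, and was not called in KO mice at days 14 and 21 (log2 -0.15 and -0.21, edgeR adjusted p = 0.645 and 0.468). Lpin1, a phosphatidate phosphatase and coactivator of oxidation genes, was lower on all 3 days in WT mice (-2.17, -1.61 and -1.65) and at day 7 in KO mice (-1.28). Hif1a, a transcription factor that favours glycolysis, was higher in all 6 comparisons, by 1.05, 1.02 and 1.20 in WT mice and 0.98, 0.84 and 0.64 in KO mice. Pdk2, a relative of Pdk4, and Srebf1 and Rxrb, a lipogenic factor and a partner of PPARs, were lower at day 7 in both genotypes.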

How the data were processed

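Bulk RNA-seq of lavage macrophages was used from 24 male mice, 3 in each of 8 groups, each listed as 2 runs. The deposited table gives 1 column of expected counts per mouse, assigned by its name, and 24 columns of other samples in it were not used. The submitters' processing notes name bcl2fastq, DESeq2 1.42.0, limma 3.58.1 and mm10. The aligner, counter, strand setting and joining of runs were not given in the sources used here, and overlapping genes and close copies may share counts. Expected counts were rounded, filtered with filterByExpr (minimum count 10, minimum total 15) and fitted with edgeR 4.0.16 in R 4.3.3, using TMM scaling and 1 quasi-likelihood model over the 8 groups with 16 residual degrees of freedom. Benjamini-Hochberg adjustment ran within each of 16 comparisons over 12634 genes, and the threshold was 0.05. The fitting code was also run on simulated counts in which groups were alike apart from changes planted in WT day 7. That setting is simpler than these data, and the run is not used to back any call. P-values of this model set differences between group means against the spread between mice, estimated over the 8 groups.

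The members and gene lists were chosen with earlier results of these data known. Values in every mouse are given for the member of each role with the smallest p against naive mice, those called between genotypes, those higher on all 3 days of a genotype, and Cpt1a, Ppara, Pdk4 and Angptl4. Other genes are named for the 6 smallest p of each list, plus Pparg, and 1 gene under this rule is not reported here. Hsd17b4, Ehhadh, Acadvl, Hadha, Hadh, Etfb, Acaa1b and Acot1 were given values beyond this rule after their values were seen. Of the listed genes, 6 were not matched in the table. Positions and exon lengths come from GENCODE M21 (GRCm38) and promoter windows from RefSeq (GRCm38.p6). Same-numbered mice deviated together by the criterion of a correlation over 0.1 in each pair only for WT day 7 against WT naive mice (0.598, 0.433 and 0.183), where the replicate block changed no call. Alternatives were DESeq2, limma-voom, RLE scaling, no filter, the compared groups alone, the replicate block, removal of Rn45s and leaving out each mouse. Added after the data were seen were leaving out KO day 14 mouse 3 with KO day 21 mouse 1 and a covariate for the share of Rn45s.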

Additional observations from a re-analysis of the deposited data

How the results depend on the processing

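No direction of a member's called change reversed under any alternative. Of 916 values of single members under alternatives other than leaving out 1 mouse, 845 kept their side of the threshold and 71 lost a call, 33 of these in models of the compared groups alone; of 684 values with 1 mouse left out, 507 kept it and 177 lost a call. Calls of members not made in the report were gained 49 times under those other alternatives, 17 of them with the Rn45s covariate and 8 in the compared groups alone, and 24 times with 1 mouse left out. With DESeq2 the number of members called was 1 for KO against WT at day 21, 1 for the response difference at day 21 and 5 for WT day 21 against day 7. Averaged over the bleomycin days, KO against WT gave 0 members without a filter, 0 in the compared groups alone, 0 with the replicate block and 2 (Acox3 and Etfb) with the Rn45s covariate. In the compared groups alone, KO day 21 gave 1 member against naive mice and 0 against day 7, and without KO day 14 mouse 3 and KO day 21 mouse 1 it gave 16 and 2. Over fits without 1 mouse, the members called against naive mice numbered 17 to 20, 12 to 17 and 11 to 15 for WT mice on days 7, 14 and 21 and 14 to 18, 4 to 13 and 4 to 16 for KO mice. They numbered 0 to 1 for KO against WT over the bleomycin days, 1 to 3 for WT day 21 against day 7, 1 to 7 for KO day 21 against day 7, and 0 to 0 for the other 7 comparisons. The cause of these changes was not tested. The replicate block left 19, 17 and 15 WT members and 20, 11 and 9 KO members called against naive mice. With 3 mice a group, some folds near 1.3 sat close to the threshold, such as Echs1 in WT mice at day 14 (edgeR adjusted p = 0.0358). Others lay far from it, such as Acox3 in the same comparison (0.000323). Ppara lay below the depth of detection.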
